A study of Drosophila melanogaster with 2 samples.

Results

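Replicated peaks in coding exons come from both libraries of a chromatin immunoprecipitation sequencing (ChIP-seq) experiment on the transcription factor cato. Each is a listed replicate 3 peak with its summit inside protein-coding sequence that overlaps a listed replicate 1 peak. The replicate 1 summit may lie outside coding sequence. Each library's list holds 30000 peaks with background, deposited as input to a later thresholding step, so an entry can be background. Only 5 of the 499 members, 1.0%, overlapped the thresholded list, against 23.9% of all replicate 3 peaks that overlap replicate 1. The members were chosen by 3 criteria applied to the replicate 3 peak list on the fly genome build dm6. The summit had to lie in a coding exon of the Ensembl annotation, it had to be over 500 bp from any annotated start site, and the peak had to overlap a peak of the replicate 1 list by at least 1 bp. Of 30000 replicate 3 peaks, 1967 had their summit in such coding sequence, and 499 of these also overlapped replicate 1. The remaining 1468, called unpartnered here, came from the same list and the same kind of sequence. Because overlap between the replicates selected the members, their overlap and signal values are given as a description, without tests.

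The experiment had 1 condition with 2 biological replicates, numbered 1 and 3. Whole Drosophila melanogaster embryos of both sexes, 0 to 16 h old, came from a stable transgenic line in which cato carries a C-terminal green fluorescent protein (eGFP). Chromatin was broken by sonication to between 200 and 800 bp and precipitated through the GFP tag with an anti-GFP antibody. What drives the transgene is not stated in the labels. Whole embryos mix all tissues, so a peak cannot be assigned to a cell type, and peak lists hold no expression measurement against which the labelled material could be checked. There was no other condition to compare with, and the control is not analysed here; the deposited file lists name the same 1 control file for both replicates. Read depth is unknown.

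cato is a basic helix-loop-helix (bHLH) protein of the atonal family. Proteins of this family pair with the broadly expressed bHLH protein daughterless and bind the short DNA element CANNTG, called an E-box, and in the fly they act in the development of sense organs and their neurons. Coding exons are transcribed and carry codons, so their base composition and their E-boxes are shaped by the protein they encode. Binding of transcription factors is usually sought in promoters, introns and intergenic enhancers rather than in coding sequence.

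The summits themselves show how varied the members are. Members were ordered by the worse of their ranks by signal value in the replicates, and the DNA at the replicate 3 summit is shown for 5 of the first 7, as examples from the upper end of that order; the windows of otp and CG4456, at places 1 and 3, are not shown. Each window is centred on the summit, reaches up to 50 bp to either side, stops where untranslated sequence begins, and is written on the strand of the gene with E-boxes in capitals. The bases come from the RefSeq copy of the dm6 assembly. The Pde1c window is chr2L:11816561-11816650, that of klar chr3L:506093-506193, that of l(3)mbn chr3L:6124779-6124879, that of Ggt-1 chrX:18507531-18507631 and that of InR chr3R:21580393-21580481. All these genes lie on the minus strand.
Pde1c: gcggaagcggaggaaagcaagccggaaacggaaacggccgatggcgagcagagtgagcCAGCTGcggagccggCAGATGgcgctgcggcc
klar: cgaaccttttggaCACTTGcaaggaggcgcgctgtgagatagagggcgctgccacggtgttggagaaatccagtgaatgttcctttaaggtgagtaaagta
l(3)mbn: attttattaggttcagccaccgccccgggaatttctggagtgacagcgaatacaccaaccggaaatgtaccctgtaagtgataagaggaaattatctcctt
Ggt-1: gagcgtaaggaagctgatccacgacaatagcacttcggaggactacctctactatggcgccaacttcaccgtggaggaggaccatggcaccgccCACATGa
InR: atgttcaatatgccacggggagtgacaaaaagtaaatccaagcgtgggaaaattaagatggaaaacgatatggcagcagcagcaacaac
The window of Pde1c holds 2 E-boxes, of the classes CAGCTG and CAGATG. Those of klar and Ggt-1 hold 1 each, of the classes CAAGTG and CACATG counted on both strands, and those of l(3)mbn and InR hold none. The klar and l(3)mbn windows run past the coding part of the exon into the intron, and the InR window begins with the ATG of the coding part of its first coding exon.

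The strongest member on both lists lay in the last coding exon of otp (orthopedia), which encodes a homeodomain transcription factor of the nervous system and hindgut. Its summit is at position 20884574 of chromosome arm 2R. The authors' signal value was 129.2 in replicate 3, where it ranked 219 of 30000, and 88.7 in replicate 1, where it ranked 186. The replicate 1 summit was 23 bp away. The second member lay in the last of 8 coding exons of Pde1c, a calcium- and calmodulin-dependent cyclic nucleotide phosphodiesterase. Its summit on 2L at 11816600 had signal values of 127.8 and 81.5 in replicates 3 and 1, with ranks of 225 and 233, and the summits of the replicates were 5 bp apart. Signal values are on the scale of the authors' peak caller, whose name is not given, so they are compared only within a list.

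These were the only members among the 1000 strongest replicate 3 peaks. In the order by worse rank a wide step separated them from the next, the member at CG4456. Some later members ranked higher in replicate 3 alone, such as that of Snx27 (41.7, rank 2216), but lower in replicate 1 (rank 7288). The CG4456 member had a replicate 3 signal value of 36.1 and a rank of 2784, against 23.8 and 2406 in replicate 1. Its summit on 3L was 508 bp from a start site and 2 bp from the end of the coding part of the last exon, and the replicate 1 summit, 30 bp away, fell in non-coding exon sequence. In klar, which encodes a KASH-domain protein that positions nuclei and lipid droplets, the second of 18 coding exons held a member with signal values of 30.3 and 29.96 and ranks of 3625 and 1687. Its replicate summits were 108 bp apart, both in coding sequence. The fifth member sat in a coding exon of only 63 bp in l(3)mbn, with signal values of 26.6 and 18.8 and summits 11 bp apart.

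Ggt-1, a gamma-glutamyl transpeptidase gene on X, held the sixth member, with signal values of 26.0 in replicate 3 and 21.2 in replicate 1. There the replicate 1 summit was 196 bp away and lay in an intron. InR, the insulin-like receptor, held the seventh in its first coding exon, 9748 bp from the nearest start site, with signal values of 30.1 and 15.7 and summits 91 bp apart. Nearly all members were weaker than these.

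**Figure D1:**
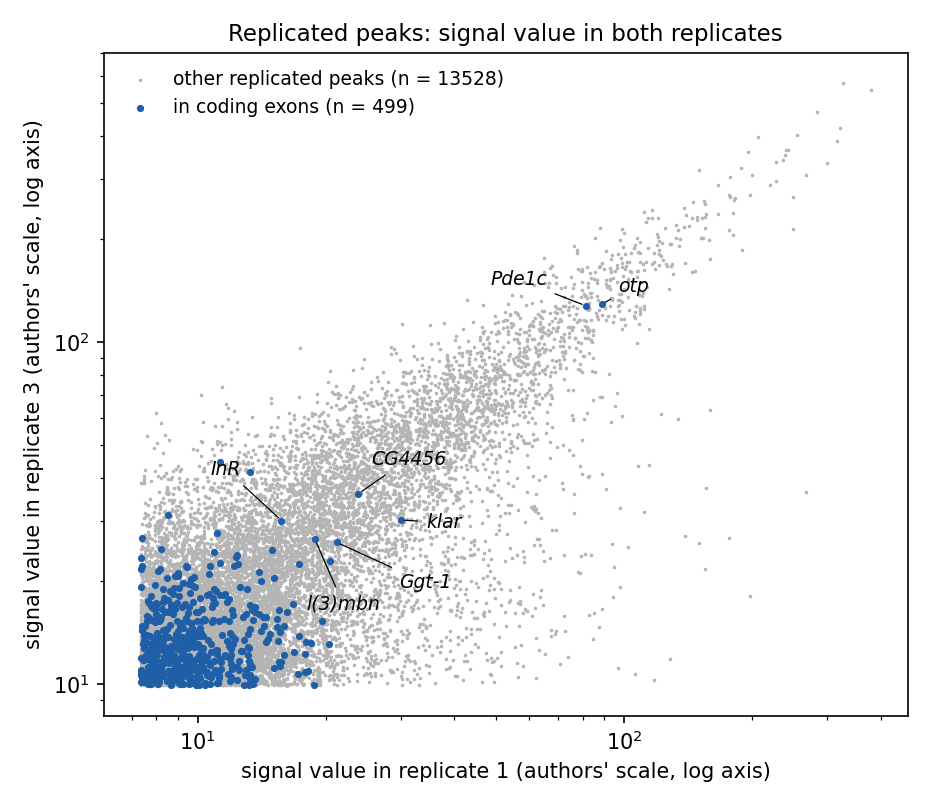
Signal value of each replicated peak in replicate 1 (horizontal, log axis, authors' scale) and replicate 3 (vertical, log axis, authors' scale), with 499 members in coding exons in blue and 13528 replicated peaks of other locations in grey. The otp and Pde1c members stand at 88.7 and 81.5 in replicate 1 and at 129.2 and 127.8 in replicate 3, while the member medians are 9.36 and 12.8.

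Across the 499 members the replicate 3 signal value spanned 9.94 to 129.2 (median 12.8, quartiles 11.2 and 15.4). In replicate 1 it spanned 7.34 to 88.7 (median 9.36, quartiles 8.21 and 11.1). The medians over all replicated peaks were higher, at 17.9 in replicate 3 and 12.9 in replicate 1, and the median member ranks were 18822 and 17482 of 30000. Only 22 members, 4.41%, were among the 10000 strongest of both lists, against 40.1% of all replicated peaks. Strength in a replicate said little about strength in the other. Spearman's rank correlation of the signal values over members was 0.14, against 0.61 over all replicated peaks and 0.68 over replicated promoter peaks. This is a description over regions of the same 2 libraries, and the narrower range of member values is part of what is being compared.

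At the edges of the selection rule the medians were close, in groups too small to show that no step exists. The 8 members whose summit was up to 20 bp beyond the 500 bp limit had a median replicate 3 signal value of 12.9, while the 12 replicated coding summits up to 20 bp inside it, just excluded, had 13.6. The 11 members that overlapped replicate 1 by 50 bp or less had a median of 13.9. The 17 coding-exon peaks that missed replicate 1 by under 50 bp had 13.1. The median overlap over all members was 298 bp, and 498 of the 499 members were 410 bp wide, against a median width of 380 bp in replicate 1.

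Coding exons, here without the bases within 500 bp of a start site, which count as promoter, were sparse in peaks. They made up 13.6% of the bases of the 7 chromosome arms. They held 6.56% of the replicate 3 list, or 105 peaks per megabase against 218 over all arms. Members stood at 26.7 per megabase, against 102 replicated peaks per megabase overall. A coding-exon peak in replicate 3 overlapped a replicate 1 peak in 25.4% of cases (Wilson 95% interval 23.5 to 27.3), against 46.8% over all 30000. The share was 56.7% at promoters, 46.0% in introns, 45.6% in intergenic sequence and 31.3% in other exons, which are untranslated or non-coding, so that coding exons had the lowest. In the other direction, 517 of 2664 replicate 1 coding-exon peaks, 19.4%, overlapped replicate 3.

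Dense peaks overlap more often by position alone, so the share of bases of each class at which a peak 410 bp wide would touch a replicate 1 peak was computed. It was 10.4% for coding exons and 26.0% for promoters, with 16.1% over the genome. The observed overlap was 2.43 times that share in coding exons, 2.18 times in promoters, 2.11 times in other exons, 2.73 times in introns and 3.45 times in intergenic sequence. Coding exons thus had the lowest overlap but not the lowest ratio. These intervals and ratios treat peaks as units and say nothing of how a further embryo collection would vary.

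**Figure D2:**
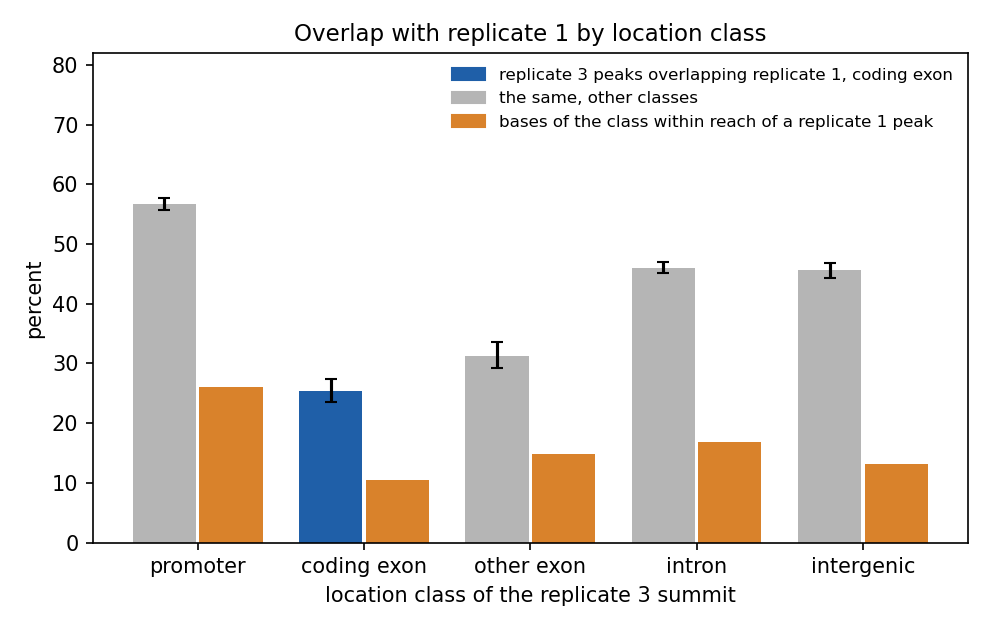
Percent of replicate 3 peaks in each location class that overlap replicate 1 (blue for coding exons and grey for other classes, with Wilson 95% intervals) beside the percent of bases of the class within reach of a replicate 1 peak (orange). Coding exons stand at 25.4% and 10.4%, promoters at 56.7% and 26.0%.

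Within the same rank range of the replicate 3 list, too, the share of coding-exon peaks that overlapped replicate 1 was below that of the rest in the 4 ranges below the top 1000, as a description of the overlap that chose the members. At ranks 1001 to 5000 the share was 62.5% in coding exons (10 of 16, 38.6 to 81.5) and 88.8% elsewhere. At ranks 5001 to 10000 it was 35.4% (63 of 178, 28.7 to 42.7) and 56.4%. It was 25.6% against 38.4% at ranks 10001 to 20000 and 22.6% against 30.4% at ranks 20001 to 30000. Most members came from the lower ranges, with 199 at ranks 10001 to 20000 and 225 below.

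**Figure D3:**
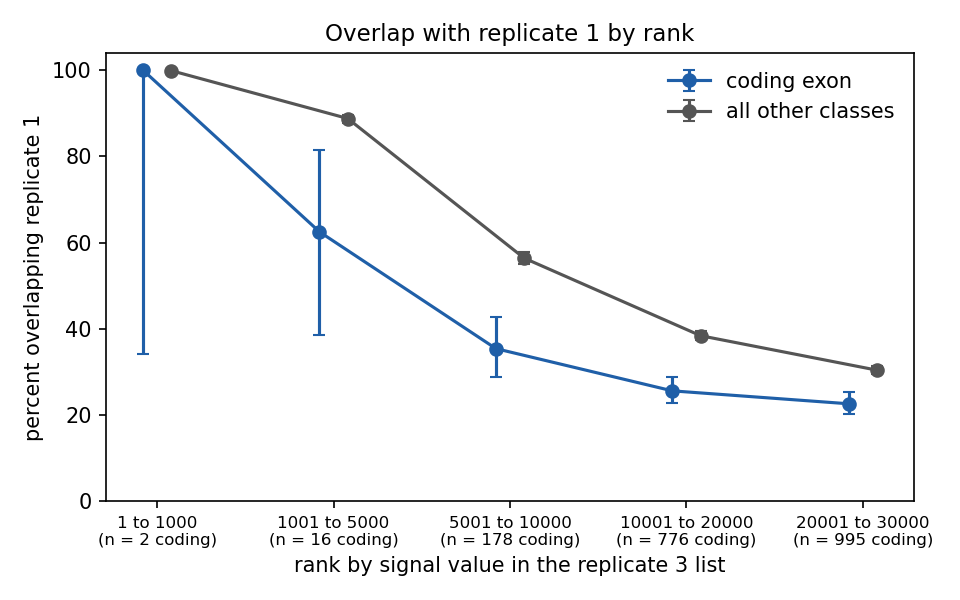
Percent of replicate 3 peaks that overlap replicate 1 in 5 ranges of rank by replicate 3 signal value, for coding exons (blue) and all other locations (grey), with Wilson 95% intervals. Both coding peaks in the top 1000 overlap, and from rank 1001 on the coding share runs from 62.5% down to 22.6%, below the other locations in each range.

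The replicate summits of a member were a median of 97 bp apart, with quartiles of 38 and 194 bp, against a median of 78 bp over all replicated peaks. They lay within 100 bp of each other in 253 members, 50.7%, against 57.6% of all replicated peaks. The replicate 1 summit was also in coding sequence for 396 members, 79.4%. It lay in an intron for 60, in an untranslated or non-coding exon for 25, at a promoter for 15 and between genes for 3. The median distance between summits was 80 bp where both were in coding sequence and 164 bp where the replicate 1 summit was intronic. About 1 in 5 members were therefore coding-exon peaks in only 1 of the libraries.

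The pooled and thresholded lists hold few of the members, and since both were made from the same libraries they give no independent evidence. Of the 499 members, 168 (33.7%, Wilson interval 29.7 to 37.9) overlapped the pooled list, against 57.3% of all replicated peaks and 25.6% of unpartnered coding-exon peaks. The irreproducible discovery rate (IDR) procedure keeps peaks that rank consistently high in the replicates. Its list of 2746 peaks overlapped 5 members, or 1.0% (0.429 to 2.32), against 23.9% of all replicated peaks. No unpartnered peak overlapped it. The 5 were those of otp, Pde1c, CG4456, klar and Ggt-1. The IDR summit itself lay in coding sequence for otp, Pde1c and klar, 15, 20 and 69 bp from the member summit. For CG4456 it lay 119 bp away in the promoter class, and for Ggt-1 196 bp away in an intron.

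The remaining members among the first 20 had replicate 3 signal values between 19.1 and 41.7 and replicate 1 values between 12.2 and 20.4. Muc68Ca, a mucin gene, held one in a single coding exon of 9405 bp, with signal values of 23.0 and 20.4 in replicates 3 and 1. The member in Snx27, a sorting nexin gene, ranked 2216 in replicate 3, with a signal value of 41.7, and 7288 in replicate 1, with 13.2. Signal values were 22.5 and 17.3 for Eip63F-1, an ecdysone-induced gene for an EF-hand calcium-binding protein, where the replicate 1 summit was intronic. They were 21.3 and 13.9 for Enoph, an enolase-phosphatase gene of methionine salvage, and 22.3 and 12.2 for uzip. Members of CG12325, CG7988 and CG6749 stood at 24.7, 20.4 and 19.3 in replicate 3 and at 15.0, 15.1 and 12.6 in replicate 1. The Muc68Ca, Enoph, Snx27, Eip75B, CG6749 and uzip members had no overlap in the pooled list, so a high rank in both replicates did not always come with one there.

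Alternative transcripts make coding sequence of what is otherwise intron, and several leading members fell in such exons. Eip75B, an ecdysone-induced nuclear receptor gene, held a member whose summits were 1 bp apart, with signal values of 19.1 and 13.1, in a 64 bp coding exon used by 1 of 7 coding transcripts and intronic in the other 6. In lola, a BTB zinc-finger transcription factor gene known for its many isoforms, the member exon was coding in 1 of 24 transcripts and the position intronic in 19. In mtd it was coding in 1 of 23 and intronic in 19. The member in jing, a zinc-finger transcription factor gene, was coding in 1 of 4 transcripts as well, but intronic in none. Their replicate 3 signal values were 22.5 for lola, 20.03 for mtd and 23.95 for jing, and their replicate 1 values lay between 12.4 and 14.1.

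Over all members, the summit was coding in every coding transcript of the gene for 403 of 499, 80.8% (77.1 to 84.0), against 86.2% (84.4 to 87.9) of unpartnered coding-exon peaks. In Fisher's exact tests of 13 position measures, added after the data were seen, this was the 1 that passed (adjusted p = 0.0497). It did not pass with summits within 100 bp, with replicate 1 summits in coding exons or over 1000 bp from start sites. Members and unpartnered peaks were split by overlap with replicate 1, and the density of replicate 1 peaks around them was not held alike. Replicate 1 peaks covered 8.42% of intron bases and 5.17% of coding-exon bases. The test therefore cannot tell a trait of the members apart from that density. The summit was intronic in some other transcript of the gene for 39 members, 7.82%, against 5.18%. Internal coding exons held 50.5% of members and 51.5% of unpartnered peaks, last coding exons 28.1% and 27.4%, first coding exons 13.6% and 12.6%, and single coding exons 7.82% and 8.51%. Coding bases over 500 bp from any start site are called open here. Of the open bases in the longest coding transcript of each gene, 57.2% were in internal and 9.26% in first coding exons. Peaks were placed in the longest transcript that is coding at the summit, which can be another one, so these base shares cover a somewhat different set. The summit was within 50 bp of the edge of the coding part in 32.1% of members and 28.8% of unpartnered peaks. Of the open bases in the longest transcripts, 20.9% were that near an edge.

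The exons that held members had a median coding length of 512 bp, against 577 bp for unpartnered peaks. For the exon around the median open coding base it was 826 bp, counted in the longest coding transcript of each gene only. With a peak width of 410 bp, 27.9% of members lay wholly within the coding part of the exon, against 30.4% of unpartnered peaks. The median distance to the nearest start site was 1362 bp, and 32.9% of members were within 1000 bp of one, against 35.3% of unpartnered peaks. An IDR summit lay within 1000 bp of 23 members, 4.61%, against 4.02%.

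Members were uneven along the chromosomes. On the large autosomal arms there were 31.1 per megabase of open coding sequence on 2L, 28.8 on 2R, 30.8 on 3L and 26.8 on 3R. The X held 43 members, 12.9 per megabase, or 8.62% of members on 17.8% of the open coding bases. The small chromosome 4 held 17, or 66.6 per megabase, and the 57444 open coding bases on the Y held none, nor any coding-exon peak in either replicate. In both single-library lists, too, the X was lowest of the arms with coding-exon peaks and 4 was highest. Replicate 3 had 71.0 coding-exon peaks per megabase on X, 106 to 113 on the large autosomal arms and 290 on 4. Replicate 1 had 87.2, 149 to 164 and 212.

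The share of coding-exon peaks that were replicated was 18.2% on X (13.8 to 23.6) and between 25.3% and 27.5% on the large autosomal arms, where peaks of other locations were replicated in 49.7% and in 46.3% to 49.1%. The share of open coding bases within reach of a replicate 1 peak was 6.42% on X and 10.6% to 11.7% on those arms, so that the ratio of overlap to reach was 2.84 on X and 2.24 to 2.46 on them. Chromosome 4 had the lowest ratio, 1.48. Embryos were of both sexes, and whether the X differed from the autosomes more in coding exons than elsewhere was not tested.

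**Figure D4:**
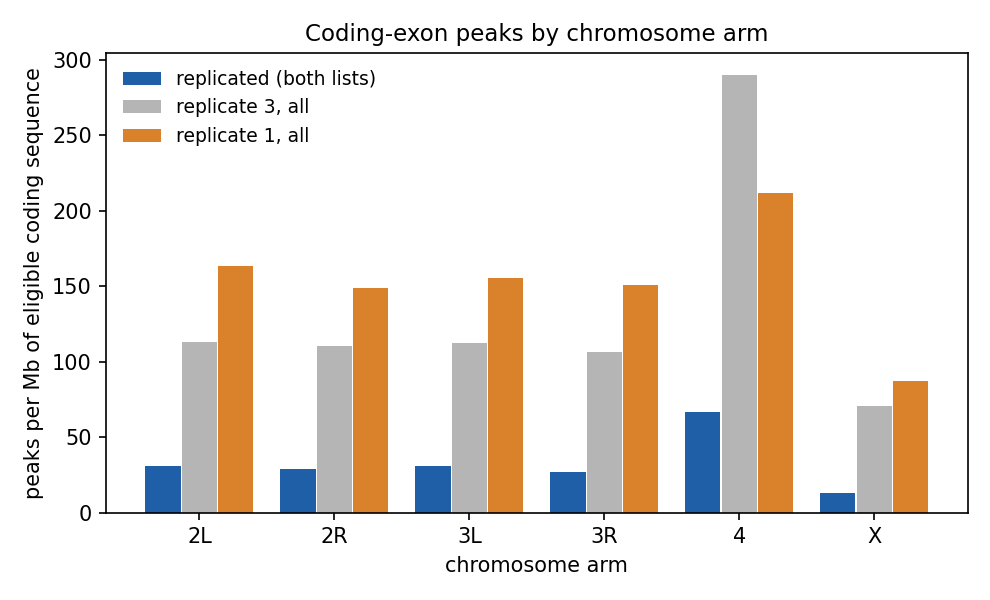
Coding-exon peaks per megabase of open coding sequence on 6 chromosome arms, for members (blue), all replicate 3 peaks (grey) and all replicate 1 peaks (orange). The Y, which had 0 in each series, is not drawn, and of the arms shown the X stands lowest in all 3 series, at 12.9, 71.0 and 87.2, and chromosome 4 highest, at 66.6, 290 and 212.

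The 499 members fell in 470 genes, 3.79% of the 12417 protein-coding genes with open coding sequence. Of these genes 441 held 1 member and 29 held 2, and none held more. Some members share their evidence, since 16 replicate 1 peaks were the partner of more than 1 member and the 499 members had 483 distinct partners. Of 5 genes with 2 members, listed by gene ID because many genes tie, aub, a Piwi-family protein gene of the germline, fz, the Wnt receptor gene frizzled, and bt, a titin-like muscle protein gene, had both members on the same replicate 1 signal value, 10.6, 8.65 and 7.60. In klar and Eip75B the members were far apart, with summits on 3L at 440539 and 506143 in klar and at 17961046 and 17998984 in Eip75B.

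Genes with more coding sequence held members more often, from 1.16% of those with up to 500 open coding bases to 11% of those with more than 4000. Per megabase the order was the opposite, 47.5 in the shortest range and 18 in the longest. Genes with a member had an IDR peak at a promoter in 21.5% of cases (Wilson interval 18 to 25.4), close to the 21.1% of genes with only unpartnered coding-exon peaks (18.9 to 23.4), and above the 14.7% of all protein-coding genes with open coding sequence. Any replicate 3 promoter peak was present for 67.0%, 65.7% and 51.9%. Gene length moves with this measure, with a median of 1807 open coding bases in genes with a member, 1612 in genes with only unpartnered peaks and 1007 in all. Promoter IDR shares were also split by open coding bases, for genes with against without a member. They were 20.5% against 10.6% up to 500 bases and 9.52% against 14.1% at 501 to 1000. Longer ranges had 18.9% against 15.3% (1001 to 2000), 24.2% against 18.3% (2001 to 4000) and 33.3% against 20.1% (above 4000). These differences were not tested.

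Among 12 gene lists, muscle structure genes held members most often, in 6 of 21 genes, or 28.6% against the background of 3.79%. The list is long in coding sequence, 215 kb, and its 8 members, in those 6 genes, came to 37.2 per megabase against 26.7 for all genes. All replicate 3 coding-exon peaks were sparser in this list, at 74.5 per megabase against 105. Msp300, the muscle nesprin that anchors nuclei, held 2 that shared a replicate 1 peak, the stronger with signal values of 17.9 and 10.9. Mhc, the muscle myosin heavy chain, had 11.2 and 10.1, and Tm2, a tropomyosin gene, 12.4 and 16.9 with the replicate 1 summit in non-coding exon sequence. Cytoskeletal motors and spectrins held members in 3 of 14 genes, or 21.4% against 3.79% of all genes. These were Myo31DF and jar, unconventional myosins, and cher, the filamin gene, with best-ranked replicate 3 signal values of 11.5, 10.8 and 11.3. The 4 members, 2 of them in Myo31DF, came to 49.1 per megabase against 26.7. All replicate 3 coding-exon peaks in this list came to 85.9 per megabase against 105. Synapse and excitability genes had members in 5 of 22, or 22.7%, at 30.3 per megabase against 26.7, with all replicate 3 coding-exon peaks at 54.5 against 105. The 3 of best rank were scrib, a polarity and synaptic scaffold, with 15.3 in replicate 3, Ank2, the neuronal ankyrin, with 12.1, and Rdl, a GABA receptor subunit, with 10.8.

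The lists tied most closely to cato are short. Of 20 sense organ and atonal-family genes 1 had a member, 5.0% (Wilson interval 0.888 to 23.6) and 39.6 members per megabase, so that this list did not stand below the background of all genes. The member was in ct, the homeodomain factor of external sense organs, in its last coding exon with signal values of 19.3 and 9.85 and summits 22 bp apart. cato itself, on 2R from 16277685 to 16278396, had only 104 coding bases over 500 bp from a start site and no member; its gene body held 1 replicate 1 peak and no replicate 3 peak. None of 18 Notch pathway genes had a member, where a count of 0 allows up to 16.7% of genes or 79.1 members per megabase. Coactivator and chromatin regulator genes had none in 28 genes and 142 kb, which allows up to 10.7% of genes or 21.1 per megabase. Limits of this kind cover counting error only.

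Patterning factor genes held members in 2 of 34, in ptc, the Hedgehog receptor gene, and hb, the gap gene hunchback, with replicate 3 signal values of 11.9 and 14.4 and replicate 1 values of 8.98 and 7.40. Adhesion and extracellular matrix genes, the list with most coding sequence at 286 kb, had 1 of 33, in Dscam1. That is 3.03% of genes (Wilson interval 0.537 to 15.3), near the 3.79% of all genes. Members stood at 3.49 per megabase against 26.7 for all genes. All replicate 3 coding-exon peaks were sparse in this list too, at 38.4 per megabase against 105. The Dscam1 signal values were 15.7 and 12.8. Ribosomal protein genes had 1 of 12, in RpL13, and broadly expressed genes 1 of 16, in eEF2, the translation elongation factor. RpL13 was among the last members by order, with 21.8 in replicate 3 and 7.35, near the floor of the list, in replicate 1. Heat shock genes had 0 of 14 and histone genes 0 of 5, which with so few genes allows shares of 21.4% or more.

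Members were GC-rich where other replicated peaks were not. In the window from 50 bp before to 50 bp after the summit the median GC content was 51.5% over members, with quartiles of 46.5 and 56.4, and 52.5% over unpartnered coding-exon peaks. It was 35.6% at replicated promoter peaks, 36.6% in introns and 37.6% in other exons and intergenic sequence. All open coding sequence had 53.4% GC. Around replicated peaks of other locations GC fell at the summit, by a median of 5.45 percentage points from the mean of the windows 300 bp to either side, while over members the summit was 4.95 points higher than its flanks. Much of the member flanks is non-coding. Where summit and flank were both wholly coding, the median difference was 0.99 points on the 5′ side (209 pairs) and 0.99 on the 3′ side (181 pairs).

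**Figure D5:**
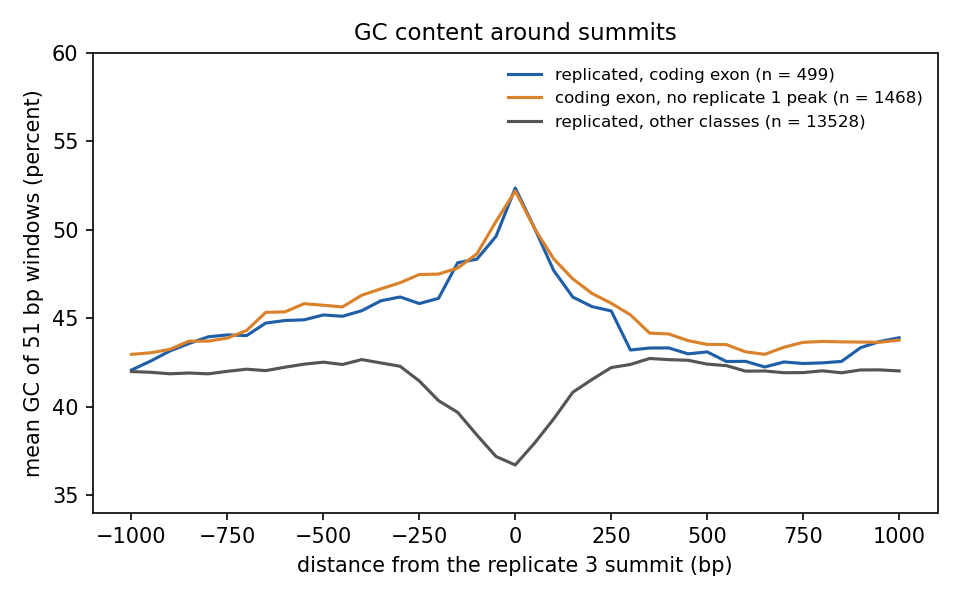
Mean GC content (percent) in windows of 51 bp against distance from the replicate 3 summit (bp), for members (blue), coding-exon peaks with no replicate 1 partner (orange) and replicated peaks of other locations (grey). Both coding sets rise to 52.4% and 52.2% at the summit, where the other replicated peaks dip to 36.7%.

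E-boxes were no more frequent at member summits than beside them beyond the error of the comparison. To hold codon composition alike, each summit window was set against a window 300 bp away that was also wholly coding. An E-box of any class was present in 99 of 209 summit windows and 92 of the 5′ flanks, 47.4% against 44.0%. The difference of 3.35 percentage points had a 95% interval of -5.97 to 12.7 (exact McNemar test, two-sided, p = 0.547, adjusted p = 1). On the 3′ side it was present in 94 of 181 summits and 83 flanks, 51.9% against 45.9%, a difference of 6.08 points with an interval of -4.21 to 16.4 (exact McNemar test, two-sided, p = 0.294, adjusted p = 0.514). None of the 11 measures on either side, the 10 CANNTG classes and any CANNTG, passed an adjusted p of 0.05, and 0 had an unadjusted p below it. With windows of 100 bp to either side, an alternative setting, the 3′ difference was 11.8 points, 79.0% against 67.2% of 119 pairs (exact McNemar test, p = 0.0385, adjusted p = 0.423). The largest class difference on both sides was that of CACCTG, 20 against 12 windows on the 5′ side and 23 against 14 on the 3′ side.

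Between members and coding-exon peaks without a partner no E-box measure passed the test either. An E-box was present in 231 of 499 member windows, 46.3% (42.0 to 50.7), and in 624 of 1468 unpartnered windows, 42.5% (40.0 to 45.1), by Fisher's exact test two-sided p = 0.144 and adjusted p = 0.790. Again 0 of 11 measures passed and 0 had an unadjusted p under 0.05. CAAGTG, which the klar window shows on its reverse strand as CACTTG, stood at 7.41% of members and 5.52% of unpartnered peaks. For comparison, 37.4% of replicated peaks of other locations and 39.0% of all replicate 3 peaks held an E-box, in sequence of lower GC content. Intervals of this width leave room for differences of several percentage points, and the p-values cover these windows only, since regions are not replicates of a condition.

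Other known elements, searched as exact letters on both strands, are given as shares of the same windows. The GAGA element GAGAG was in 10.4% of members, 11.7% of unpartnered peaks and 10.7% of other replicated peaks. The DREF element TATCGATA was in 1 member, 0.20%, and 1.14% of other replicated peaks, and the BEAF element CGATAG in 2.20% and 3.73%. The Zelda element CAGGTAG was in 5 members, 1.00%, against 1.09% of unpartnered and 0.480% of other replicated peaks. The CA repeat CACACACA was in 1 member, 0.20%, and in 2.20% of other replicated peaks. A match describes the letters in the window and not a bound site.

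The CAG repeat CAGCAGCAG, which in frame encodes runs of glutamine or other single amino acids, was found in 9 members, 1.80%, and in 2.86% of unpartnered peaks, against 0.392% of other replicated peaks and 0.647% of all replicate 3 peaks. Coding sequence beside the summits held it at shares like these, in 1.91% of the 5′ flanks against 2.39% of their summits and in 3.31% of the 3′ flanks against 1.66% of theirs. One of the 9 is the InR member, near the 3′ end of whose window the repeat stands. Others are those of SoxN, a SoxB transcription factor gene, H15, a T-box gene, and aop, the ETS repressor gene yan, with replicate 3 signal values of 18.4, 10.7 and 11.96. The rest, besides CG6340, are those of CG8320, CG42268, ldbr and Tps1, with 17.3, 12.1, 13.6 and 11.2. The window of the CG6340 member, chrX:15483595-15483672 on the plus strand, is shown with the repeat in capitals as an example, with signal values of 12.9 and 9.80, slightly above the member medians.
CG6340: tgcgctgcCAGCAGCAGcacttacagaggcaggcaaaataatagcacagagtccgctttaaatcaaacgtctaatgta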

How the data were processed

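Members and gene lists were chosen with earlier results of these data known. Per the deposited file lists, the dm6 files are 30000 peaks with background for each replicate, which served as IDR input, another such list of the pooled data and the IDR-thresholded optimal peaks. The authors' signal value per peak was used within a list only, for ranks and medians, and their −log10 column was deposited but not used. The summit offset deposited with each peak gave the summit. The peak caller, the aligner and their versions are not stated in the labels or file headers. Read depth is unknown. The 4 dm3 lists were not used.

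Summits were classed against Ensembl release 115 (BDGP6.54, dm6) in the order promoter (within 500 bp of a start site), coding exon, other exon, intron, intergenic; start sites of transposable elements were left out. A peak's partner is its strongest overlapping replicate 1 peak. Coding bases over 500 bp from a start site are called open. Sequence was the RefSeq copy of dm6. Shares carry Wilson 95% intervals. E-boxes were compared by exact McNemar and Fisher tests with Benjamini-Hochberg adjustment over 11 measures, on 1 peak per cluster of overlapping windows of 50 bp to either side of the summit. The motif and overlap steps were tested on simulated data. Replicates are separate biological samples per the labels, with 1 group and no covariate. Named are the first 20 members (1 is not reported here), 5 genes with most members, up to 3 genes of each list, members overlapping an IDR peak, and cato; the members with a CAG repeat were named after their values were seen. Alternatives changed the distance, the overlap, the list length, the annotation, the windows and the replicate used. Python 3.11.15, numpy 2.4.6, scipy 1.17.1 and matplotlib 3.10.9 were used.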

Additional observations from a re-analysis of the deposited data

How the results depend on the processing

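The 499 members became 376 with a reciprocal overlap of 50%, 261 with summits within 100 bp and 22 with the 10000 strongest peaks of each list, and the share of coding-exon peaks that were replicated became 19.1%, 13.3% and 11.2%. With the replicates exchanged the share was 19.4%. With 1 library alone, so without the overlap, the count was 1967 to 2664. Start-site distances of 250 and 1000 bp, protein-coding start sites only, the RefSeq annotation and, added after the data were seen, transposable-element start sites gave 593, 335, 504, 499 and 494 members. The share in the pooled list was 24.6% with the reciprocal overlap, 20.2% with summits within 100 bp and 68.2% with the 10000 strongest, where the share in the IDR list was 22.7%, the median signal values 23.2 and 14.5 and the median ranks 5586.5 and 5905.5 in replicates 3 and 1; fewer and stronger peaks enter there by construction. The median GC content was 50.2% in windows of 100 bp to either side. The E-box difference from the 5′ flank turned to -7 points with replicate 1 summits (exact McNemar test, adjusted p = 0.89), and the cause was not tested; over its alternatives it ran from -7 to 6.1 points with adjusted p from 0.81 to 1, and the 3′ difference ran from 3.3 to 11.8 points with adjusted p from 0.423 to 1. Exact Fisher tests of 13 position measures, added after the data were seen against a design that planned none, gave 1 measure with an adjusted p under 0.05: fewer members were coding in every transcript, by 5.48 points (adjusted p = 0.0497). With the exact p multiplied by 13 this was lost with summits within 100 bp (-7.27 points, p = 0.0505), with replicate 1 summits in coding exons (-5.68, p = 0.0887) and over 1000 bp from start sites (-5.39, p = 0.385), and held with the reciprocal overlap and with 1 member per replicate 1 peak (p = 0.0097 and 0.0279). The position tests cannot tell a trait of the members apart from the density of replicate 1 peaks, because overlap with replicate 1 made the split. No paired analysis was possible because there is only 1 group. Unknown depth and 2 libraries limit all values.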
